A study of Mus musculus with 34 samples.

Results

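The passage from neural progenitor cell (NPC) to immature dopaminergic neuron was followed in cells that carry a heterozygous deletion of mouse chromosome 7qF3, the region that corresponds to the human 16p11.2 interval. The members were chosen by their labels: 3 deletion NPC libraries (replicates 1, 3 and 5, collected on day 5) and 2 deletion neuron libraries (replicates 1 and 3, day 16), 5 of the 28 RNA libraries of a series of 34 samples. The deletion cells have the genotype 129Sv df/+, and the labels also name C57BL/6N as their strain; they come from 1 embryonic stem cell line made in another laboratory. Control cells (129Sv +/+, 5 NPC and 4 neuron libraries) and cells with the duplication on 1 chromosome and the deletion on the other (129Sv df/dp, 3 NPC and 2 neuron libraries) went through the same course. All lines were taken from embryonic stem cells to epiblast-like stem cells in Activin and FGF2 before differentiation began and RNA was extracted from whole cultures, so every value is an average over all cells in the dish. Nothing in the labels says that the replicates came from separate differentiations, so each p-value speaks for the scatter among these RNA libraries, which may be technical.

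Neural progenitors divide, keep their fate through SOX transcription factors and Notch signalling, and make neurons in short bursts of proneural factors such as NEUROG2. A cell that leaves the cycle shuts off the genes of DNA replication and mitosis, changes its chromatin-remodelling complexes and splicing factors, and builds axons, ion channels and synapses. In the ventral midbrain the progenitors of dopaminergic neurons lie in the floor plate, where SHH, FOXA2 and LMX1A act. The neurons that arise there make dopamine with tyrosine hydroxylase and dopa decarboxylase.

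The 5 libraries held 24053962 to 59794312 expected counts, of which a single entry, GU332589, took 20.6 to 36.8%. Between 16817 and 20214 genes had at least 1 count in a library, with the fewest in neuron replicate 1 and the most in neuron replicate 3. The 2 neuron libraries differed from each other by more than 4-fold in 257 of 8844 genes with a mean CPM of at least 10 (2.91%). In the 3 pairs of deletion NPC libraries this share was 0.478 to 2.36%. In control neurons it was 0.343% between replicates 1 and 2 and 0.21% between replicates 3 and 4. Pairs across these sets of control neurons differed in 1.32 to 1.88%. Control neuron replicates 1 and 2 also had fewer genes with a count (17284 and 17830) than replicates 3 and 4 (20152 and 20426). The source of this split was not tested. All levels below are in CPM, the usual unit of counts relative to library size, here scaled by TMM, and are given for NPC replicates 1, 3 and 5 and then for neuron replicates 1 and 3. No gene lengths were used, so levels are compared between libraries and not between genes. Changes are log2 differences of neurons minus NPCs from edgeR's quasi-likelihood fit, with their standard error (SE) and a p-value adjusted by Benjamini-Hochberg over the 18797 genes tested; a gene is said to rise or fall where this adjusted p is below 0.05. In bulk RNA a smaller share of cells of one type and less RNA per cell cannot be told apart.

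The deletion was visible in both stages as a lower level of the genes it removes. Across the 22 genes of the interval with at least 1 CPM in controls, the median level was 49.7, 47.4 and 72.0% of the control mean in the NPC libraries and 37.9 and 57.3% in the neuron libraries. The control libraries spanned 83.2 to 115.6% in NPCs and 83.7 to 116.3% in neurons, so neither stage overlapped with its controls. In the libraries with the duplication beside the deletion the same median was 75.3 to 116.1% in NPCs and 83.6 to 89.2% in neurons. Of the 30 interval genes tested, 27 had a fitted difference below 0 against control in NPCs and 30 in neurons, with a median log2 difference of -0.76 and -0.96, beside 0.02 and -0.06 over all genes tested. Taken 1 by 1, none passed edgeR's threshold in either stage (background in NPCs 0.0585% of genes called, 0.0106% higher and 0.0479% lower, and in neurons 0.00532%); 13 and 10 of the 30 had an unadjusted p below 0.05, all lower, and DESeq2 called 5 and 3 of them lower. Without neuron replicate 3 the neuron median was -1.50, and without neuron replicate 1 it was -0.66.

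Between day 5 and day 16, 2752 genes rose (14.6% of those tested) and 2599 fell (13.8%), which makes 5351 changed genes (28.5%). Of these, 2619 rose and 2292 fell by at least 2-fold, with a median log2 change of 2.49 for genes that rose and -1.63 for those that fell, beside a median of 0.06 over all genes tested. The NPC and neuron libraries did not overlap for 5287 of the 5351, beside 9426 of all 18797 genes tested (50.1%). Most listed genes of DNA replication, cell division and fetal growth control fell, and most of those of synapses, channels, transmitter receptors, astrocytes and motile cilia rose. The counts for every list below stand beside 14.6% of all tested genes that rose and 13.8% that fell. Where either neuron library is left out, the neuron stage rests on 1 library, whose scatter is then assumed to be that of the other groups. Without neuron replicate 1 the counts were 1981 and 1839, and 3470 of the 5351 calls (64.8%) were kept; without neuron replicate 3, 3733 (69.8%) were kept. Of 163 genes named here that passed, 115 also passed without each of the 5 libraries in turn and without NPC replicate 5 and neuron replicate 1 together.

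**Figure D1:**
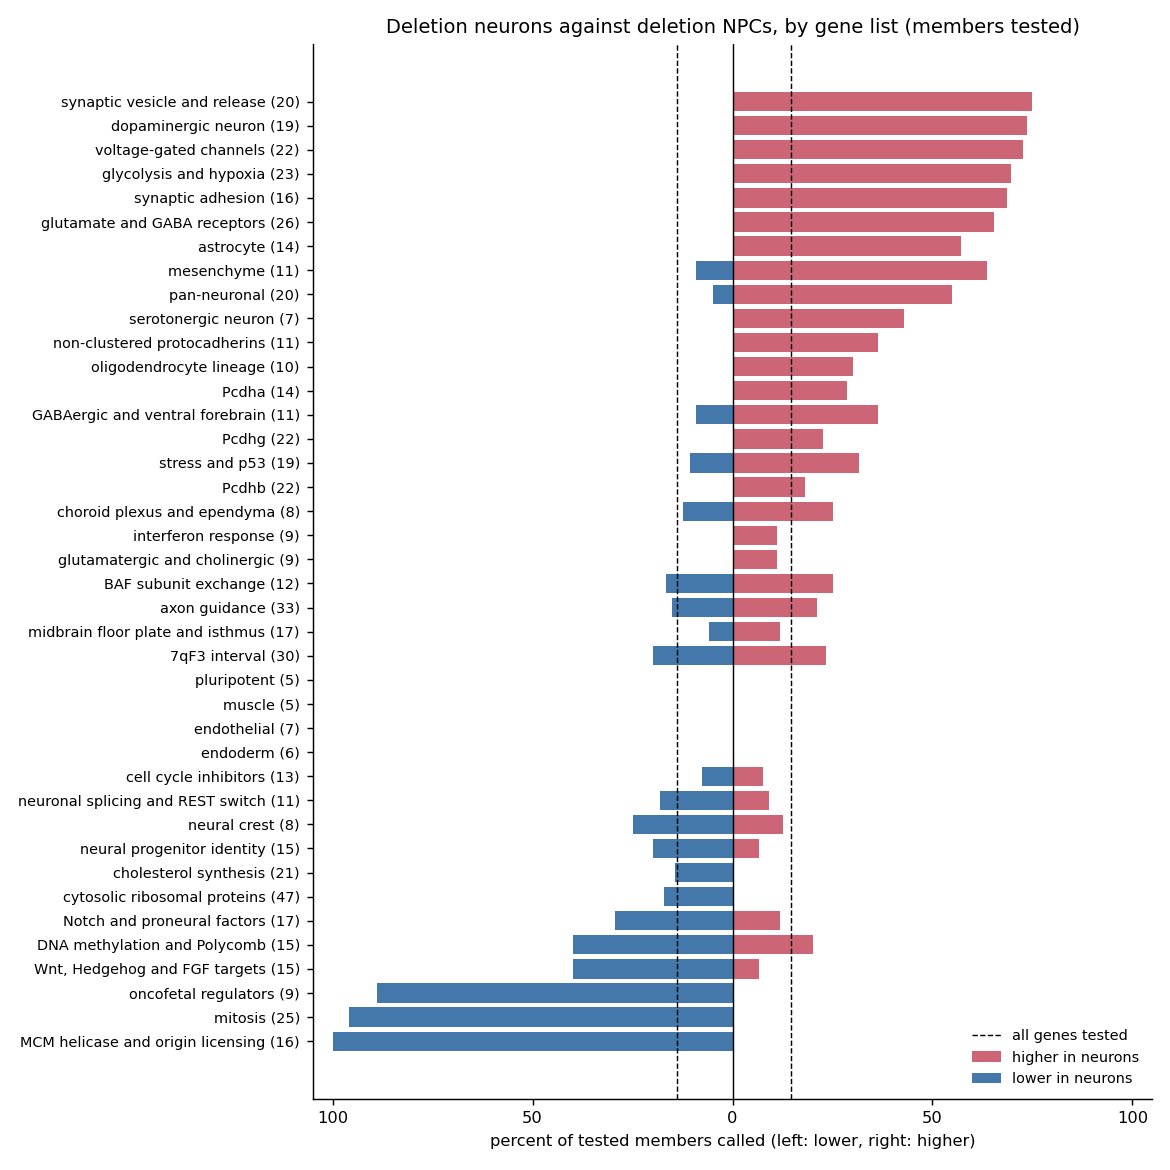
Share of the tested members of each gene list that rose (right, red) or fell (left, blue) from deletion NPCs to deletion neurons, in percent; the number of members tested stands beside each list, and dashed lines mark the share over all genes tested (14.6 and 13.8%). All 16 replication licensing genes and 24 of 25 mitosis genes fell, while 17 of 26 transmitter receptor genes and 16 of 22 voltage-gated channel genes rose.

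All 16 listed genes of the replicative helicase and of origin licensing fell, with a median log2 change of -4.23. The MCM proteins form the helicase that opens DNA at replication origins, and ORC1, CDC6 and CDT1 load it. Mcm5 read 179, 239 and 290 CPM in NPCs and 1.85 and 5.47 CPM in neurons (log2 change -6.00, SE 0.63, edgeR adjusted p = 3.33e-06). Mcm6 read 158, 193 and 246 CPM against 7.20 and 10.8 CPM (-4.46, SE 0.36, edgeR adjusted p = 4.42e-07). For both genes the lowest NPC library stood far above the highest neuron library. Cdc6 went from 36.5, 42.4 and 70.4 CPM to 0.81 and 0.78 CPM (-5.96, SE 0.43), and Cdc45, which travels with the helicase, from 62.7, 74.2 and 70.2 CPM to 1.63 and 1.604 CPM (-5.41, SE 0.44). Orc1 read 8.00, 8.44 and 15.8 CPM in NPCs and had no count in either neuron library, which makes it at least 329-fold lower when 3 counts over the neuron group are taken as the floor. The gene has an entry under an older symbol as well, Orc1l, with 0.66 and 0.73 CPM in neurons, so the 0 concerns the reads given to 1 of its entries. The smallest change in the group was that of Gins4, a subunit of the GINS complex, at 43.9, 46.1 and 47.0 CPM in NPCs and 17.8 and 16.3 CPM in neurons (-1.42, SE 0.23).

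Of 25 mitosis genes, 24 fell, with a median log2 change of -4.38. Top2a, the topoisomerase that untangles chromosomes, read 1086, 1124 and 1053 CPM in NPCs and 51.5 and 62.2 CPM in neurons (-4.26, SE 0.35, edgeR adjusted p = 4.66e-07). Mki67, the gene of the proliferation antigen Ki-67, read 1894, 2730 and 1397 CPM against 99.6 and 83.1 CPM (-4.46, SE 0.52). Both were still measured in neurons, and in neither gene did the stages overlap. Ube2c and Cdc20, partners of the anaphase-promoting complex, fell from 79.2, 87.1 and 134 CPM to 3.35 and 5.03 CPM and from 44.2, 51.2 and 70.1 CPM to 1.01 and 6.42 CPM. The gene of the list that did not pass was Cenpa, the centromeric histone H3, at 3.69, 3.01 and 12.1 CPM against 0.53 and 2.10 CPM (edgeR adjusted p = 0.11). Leaving out any 1 of the 5 libraries left 24 mitosis genes and 15 or 16 licensing genes below the threshold. Of 13 inhibitors of the cell cycle, Rbl2 rose (log2 change 1.15, SE 0.38; lost without neuron replicate 1 or NPC replicate 3 or 5, edgeR adjusted p from 0.054 to 0.22) and Rbl1, a related pocket protein, fell (-2.90, SE 0.37). Cdkn1b, which encodes p27, read 106, 104 and 63.4 CPM in NPCs and 270 and 107 CPM in neurons and did not pass (edgeR adjusted p = 0.091).

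The promoters of these genes are shown because they moved together; each window holds the 200 bases before the annotated start in RefSeq's GRCm38.p6, 5′ to 3′ on the strand of the gene, whereas the counts were made on mm9. In the first 3, mitosis genes, capitals mark CCAAT, the NF-Y motif, which reads ATTGG from the other strand, and TTTGAA, the cell cycle genes homology region, which reads TTCAAA from there. In the last 3, replication genes, capitals mark the E2F motifs TTTGGCGC and TTTCGCGC in either direction; in Mcm6 and Mcm5 a match on each strand overlaps the other, so the capitals there run on.
Top2a, chr11:99024190-99024389, minus strand: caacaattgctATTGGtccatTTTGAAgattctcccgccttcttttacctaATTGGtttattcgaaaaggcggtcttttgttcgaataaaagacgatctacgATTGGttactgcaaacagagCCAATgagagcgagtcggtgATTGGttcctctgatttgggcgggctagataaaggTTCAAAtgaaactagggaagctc
Ube2c, chr2:164769729-164769928, plus strand: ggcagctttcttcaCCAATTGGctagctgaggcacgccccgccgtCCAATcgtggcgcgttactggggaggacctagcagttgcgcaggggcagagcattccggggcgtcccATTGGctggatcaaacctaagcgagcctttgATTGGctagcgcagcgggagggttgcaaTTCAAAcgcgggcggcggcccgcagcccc
Cdc20, chr4:118437344-118437543, minus strand: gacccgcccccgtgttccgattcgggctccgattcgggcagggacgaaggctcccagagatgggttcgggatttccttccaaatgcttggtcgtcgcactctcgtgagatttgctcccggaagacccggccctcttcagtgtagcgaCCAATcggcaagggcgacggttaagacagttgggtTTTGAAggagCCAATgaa
Mcm6, chr1:128359706-128359905, minus strand: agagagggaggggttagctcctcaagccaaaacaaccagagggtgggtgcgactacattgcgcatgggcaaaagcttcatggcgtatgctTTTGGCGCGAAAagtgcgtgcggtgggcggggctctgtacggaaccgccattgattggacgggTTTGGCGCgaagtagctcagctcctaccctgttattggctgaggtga
Mcm5, chr8:75109309-75109508, plus strand: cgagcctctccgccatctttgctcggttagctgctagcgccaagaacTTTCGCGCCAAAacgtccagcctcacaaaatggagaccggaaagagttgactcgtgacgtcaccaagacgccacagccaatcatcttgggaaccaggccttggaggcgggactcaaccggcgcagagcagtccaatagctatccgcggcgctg
Orc1, chr4:108579254-108579453, plus strand: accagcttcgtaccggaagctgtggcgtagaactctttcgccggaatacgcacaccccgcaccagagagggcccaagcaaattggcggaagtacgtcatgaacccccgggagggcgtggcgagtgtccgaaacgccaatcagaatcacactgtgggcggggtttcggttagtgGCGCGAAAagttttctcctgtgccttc

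In the Top2a window CCAAT stood 5 times and TTTGAA 2 times, and in the Cdc20 window 2 times and 1 time. The Mcm6 window held TTTGGCGC 2 times and TTTCGCGC 1 time, and that of Orc1 a single TTTCGCGC 27 bases before the start. Over the full promoters of the table, 250 bases before to 50 after the start and both strands, 21 of the 25 mitosis genes were found, and 18 of them held CCAAT (85.7%), 16 held TTTGAA (76.2%) and 17 held CCAAT with TTTGAA or TTTAAA (81.0%). Among 12461 promoters of tested genes these shares were 42.9, 14.6 and 9.53%. Of 11 licensing genes found, 9 held CCAAT (81.8%), 3 held TTTGAA (27.3%) and 4 held CCAAT with TTTGAA or TTTAAA (36.4%), so CCAAT was frequent in both lists. In the same 11, 6 held an E2F motif (54.5%), against 1.70% of all promoters and 1 of 21 mitosis promoters (4.76%). These are matches of letters in a fixed window and show no binding.

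The replication-dependent histone genes, whose mRNAs are made in S phase and lack a poly(A) tail, fell in 26 of 41 cases and rose in none, with a median log2 change of -3.61; this list was drawn up after Hist1h2ap had appeared among the largest changes and supports nothing by itself. Hist1h2ap read 585, 856 and 1742 CPM in NPCs and 17.4 and 14.9 CPM in neurons (-6.04, SE 0.69, edgeR adjusted p = 7.11e-06). The summed level of the list was 4407, 5038 and 19040 CPM in NPCs and 328 and 1180 CPM in neurons. NPC replicate 5, the shallowest library of the 5, was thus the highest, and the number of histone genes that fell was 16 without it and 15 without neuron replicate 1.

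Regulators of fetal growth and developmental timing fell in 8 of 9 cases (median log2 change -4.005). Hmga2, a chromatin protein of fetal stem cells, read 47.2, 77.6 and 157 CPM in NPCs and 0.68 and 0.55 CPM in neurons (-7.25, SE 1.03, edgeR adjusted p = 5.70e-05). Lin28a, which blocks maturation of let-7 microRNAs, read 57.1, 36.3 and 119 CPM against 0.64 and 0.75 CPM (-6.66, SE 0.97). Its paralogue Lin28b fell less, from 291, 307 and 282 CPM to 18.9 and 11.4 CPM (-4.28, SE 0.63). The RNA-binding proteins Igf2bp1, Igf2bp2 and Igf2bp3 fell by 3.53, 3.47 and 4.01 on the log2 scale, and Trim71, a let-7 target, from 15.4, 19.5 and 30.2 CPM to 0.35 and 0.50 CPM. Sall4, a stem cell transcription factor outside the list, was among the 12 largest decreases at 43.4, 66.1 and 47.8 CPM against 0.51 and 1.03 CPM. None of the 8 list members that fell overlapped between stages, which also held for 5287 of the 5351 changed genes and for 50.1% of all genes tested.

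**Figure D2:**
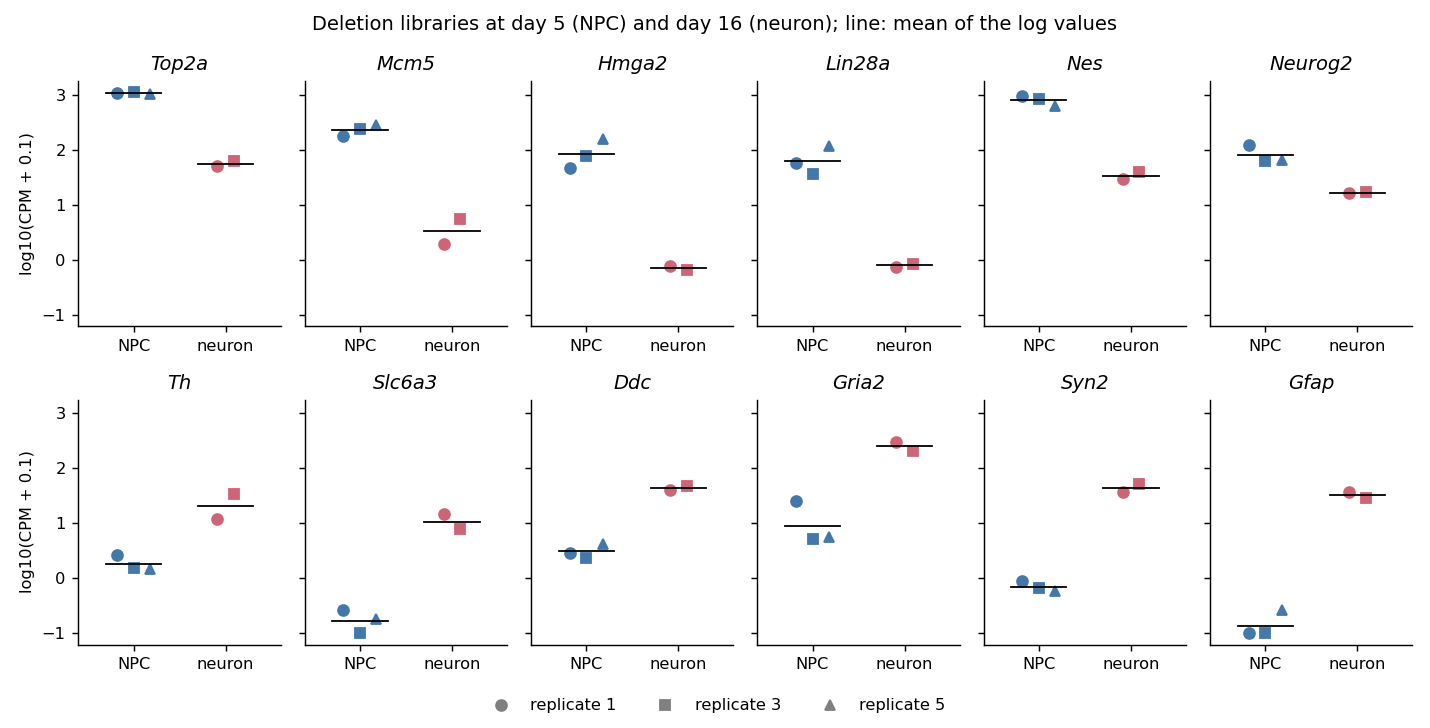
CPM on a log10 axis (0.1 added) of 12 genes in the 3 deletion NPC libraries (blue) and the 2 deletion neuron libraries (red); the symbol shape gives the replicate and the line the mean of the log values. The upper 6 panels hold genes that fell, such as Hmga2 from 47.2 to 157 CPM down to 0.55 and 0.68 CPM, and the lower 6 genes that rose. The stages did not overlap in any of the 12, which also held for 5287 of the 5351 changed genes.

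Markers of neural progenitors did not move as a block: of 15 genes, Sox1, Sox3 and Nes fell, Prom1 rose and 11 did not pass. The share changed, 26.7%, was near the 28.5% of all genes. Nes, the intermediate filament nestin, read 954, 849 and 636 CPM in NPCs and 29.2 and 39.8 CPM in neurons (log2 change -4.56, SE 0.47, edgeR adjusted p = 2.88e-06). Sox2, the shared factor of progenitors and astrocytes, read 134, 125 and 120 CPM against 78.4 and 80.7 CPM; the stages did not overlap, yet the change of -0.67 (SE 0.36) did not pass (edgeR adjusted p = 0.18). Vim and Fabp7, of radial glia, did not pass either, at -0.58 (SE 0.39) and 0.06 (SE 0.68). Prom1, a membrane protein of progenitors and of ciliated cells, rose from 149, 102 and 147 CPM to 493 and 301 CPM (1.58, SE 0.52), a call that was lost without any 1 of the libraries except neuron replicate 3 (edgeR adjusted p from 0.053 to 0.21). The number that fell was 1 without neuron replicate 1 or NPC replicate 3.

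Among 17 Notch and proneural genes, 5 fell and 2 rose. The proneural factors Neurog2 and Neurod4 fell from 122, 64.1 and 66.2 CPM to 16.6 and 16.8 CPM (log2 change -2.34, SE 0.61) and from 122, 50.4 and 47.2 CPM to 1.41 and 4.17 CPM (-4.71, SE 0.95). Neurog1, lower in NPCs at 5.95, 2.55 and 10.2 CPM, read 0 and 0.053 CPM in neurons. The call of Neurog2 was lost without either neuron library (edgeR adjusted p = 0.059 and 0.057). NPC replicate 1 held the highest Neurog2 and Neurod4 of the 3 NPC libraries. The ligands Dll1 (-1.73, SE 0.59) and Jag1 (-1.63, SE 0.29) fell, while the ligand Jag2 (1.55, SE 0.54) and the effector Heyl (2.01, SE 0.67) rose. The other 10 genes, with the Notch receptors and Hes effectors among them, did not pass. Heyl is the one called gene of this list whose stages overlapped, with 0.26, 0.45 and 0.32 CPM against 0.37 and 2.42 CPM. No gene of the list rose without neuron replicate 3 or without NPC replicate 1, and the number that fell was 3 without neuron replicate 1.

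Of 15 genes that report Wnt, Hedgehog and FGF signalling, 6 fell and 1 rose. The transducers of Hedgehog signals Gli1, Gli2 and Gli3 fell by 2.99, 2.03 and 3.42 on the log2 scale; Gli3 went from 12.7, 47.7 and 24.3 CPM to 2.62 and 2.66 CPM. The Wnt targets Lef1 (-2.82, SE 0.72), Sp5 (-3.48, SE 0.85) and Nkd1 (-1.02, SE 0.34) fell with them. Spry4, an FGF feedback inhibitor, rose from 0.48, 3.23 and 1.34 CPM to 18.1 and 17.1 CPM (3.38, SE 0.73). Without neuron replicate 1, a single gene of the list still fell.

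Of 17 tested genes of the midbrain floor plate and isthmus, Corin and En1 rose, Wnt1 fell and 14 did not pass; the call of Corin was lost without either neuron library or NPC replicate 3 or 5 (edgeR adjusted p from 0.052 to 0.24), and that of Wnt1 without neuron replicate 1 (0.052). The floor plate factors Foxa2 and Lmx1a read 88.4, 87.1 and 57.0 CPM and 137, 145 and 68.0 CPM in NPCs, and 43.7 and 33.4 CPM and 114 and 99.2 CPM in neurons. Shh, the floor plate signal, read 165, 128 and 96.5 CPM against 80.5 and 14.5 CPM (log2 change -1.45, SE 0.76, edgeR adjusted p = 0.17). Floor plate genes were therefore measured in all 5 libraries at both stages. En1, which midbrain dopaminergic neurons keep, rose from 0.71, 1.299 and 2.75 CPM to 12.8 and 12.1 CPM (3.00, SE 0.73, edgeR adjusted p = 0.0047).

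Genes of dopaminergic neurons rose in 14 of 19 cases and fell in none (median log2 change 3.82). Th, tyrosine hydroxylase, read 2.57, 1.47 and 1.38 CPM in NPCs and 11.9 and 34.8 CPM in neurons (3.68, SE 1.26, edgeR adjusted p = 0.037). Ddc, dopa decarboxylase, rose from 2.85, 2.29 and 4.17 CPM to 40.1 and 48.7 CPM (3.85, SE 0.47, edgeR adjusted p = 1.35e-05). Slc6a3, the dopamine transporter, stood at 0.17, 0 and 0.081 CPM in NPCs and 14.5 and 7.77 CPM in neurons (6.97, SE 1.25). The call of Th was lost without neuron replicate 3 (adjusted p = 0.19) and without any 1 of the NPC libraries (0.070 to 0.11), whereas Slc6a3 and Ddc passed without each library. In none of the 3 did the stages overlap, which also held for 5287 of the 5351 changed genes. Th was higher in neuron replicate 3 and Slc6a3 in neuron replicate 1. Aldh1a1, a retinaldehyde dehydrogenase of ventral midbrain neurons, rose from at most 0.20 CPM to 87.9 and 23.7 CPM (8.85, SE 1.00). Chrnb3, a nicotinic receptor subunit, had no count in NPCs and read 15.8 and 2.78 CPM in neurons, at least 358-fold higher. Pitx3, a factor of mature midbrain dopaminergic neurons, rose from 0, 0.22 and 0 CPM to 0.62 and 2.37 CPM (4.24, SE 1.49, edgeR adjusted p = 0.041); the call was lost without neuron replicate 3 (0.22) or NPC replicate 1 or 5 (0.11 and 0.11). Nr4a2, the factor also called Nurr1, was already at 107, 74.3 and 10.1 CPM in NPCs and read 87.6 and 54.6 CPM in neurons (0.16, SE 1.09, edgeR adjusted p = 0.94). Slc18a2, the vesicular monoamine transporter, overlapped between stages with 12.8, 0 and 6.64 CPM against 1.83 and 27.2 CPM, and Slc10a4 had no count in any of the 5 libraries.

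Genes of other transmitter systems rose in part, beside 14.6% of all genes that rose. Of 7 serotonergic genes 3 rose (42.9% changed): Tph2, which makes serotonin, went from 0.39, 0.087 and 0 CPM to 23.5 and 2.76 CPM, Slc6a4 from at most 0.040 CPM to 8.56 and 1.64 CPM, and Fev from no count to 0.59 and 0.16 CPM. All 3 were several times higher in neuron replicate 1 than in neuron replicate 3. Of 11 GABAergic genes 4 rose and 1 fell: Gad1 read 3.37, 3.42 and 0.69 CPM against 39.3 and 46.1 CPM (log2 change 4.08, SE 0.83). Gad2 and the vesicular transporter Slc32a1 rose by 2.82 and 4.41, while Tal2, a midbrain GABAergic selector, fell from 15.0, 8.51 and 11.6 CPM to 0.18 and 0.64 CPM. The calls of Gad2 and Slc32a1 were each lost in several omissions of libraries. The Dlx factors of the ventral forebrain did not pass. Slc17a6, the vesicular glutamate transporter VGLUT2, read 93.5, 40.8 and 14.9 CPM in NPCs and 141 and 187 CPM in neurons and missed the threshold (1.72, SE 0.66, edgeR adjusted p = 0.059); of 9 glutamatergic and cholinergic genes, Slc17a8 alone rose (11.1% changed), and none did without neuron replicate 1 or NPC replicate 3. The number of GABAergic genes that rose was 2 without NPC replicate 3, and the call of Tal2 was lost without neuron replicate 1 (edgeR adjusted p = 0.099).

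Of 20 pan-neuronal genes 11 rose, Nefm fell and 8 did not pass (median log2 change 1.39). Mapt, which encodes tau, read 38.9, 12.4 and 11.1 CPM in NPCs and 381 and 408 CPM in neurons (4.24, SE 0.68, edgeR adjusted p = 0.00018). L1cam, an axonal adhesion protein, rose from 26.1, 7.01 and 5.87 CPM to 156 and 111 CPM (3.36, SE 0.70), and Gap43, of growing axons, from 145, 39.1 and 54.8 CPM to 338 and 299 CPM (2.00, SE 0.42). Tubb3 and Dcx, which appear as soon as a cell turns neuronal, overlapped between stages: Tubb3 read 443, 188 and 486 CPM against 339 and 578 CPM, and Dcx 346, 128 and 96.9 CPM against 302 and 365 CPM. Nefm, the medium neurofilament, fell from 33.7, 14.5 and 12.8 CPM to 4.62 and 3.48 CPM (-2.33, SE 0.65, edgeR adjusted p = 0.012), a call lost without either neuron library or NPC replicate 1 (0.053 to 0.099). The summed level of the list was 3333, 1457 and 1440 CPM in NPCs and 5290 and 4542 CPM in neurons; NPC replicate 1 was the highest of the NPC libraries, and its part in the changes of neuronal genes was not tested beyond leaving it out. The number that rose was 11 without NPC replicate 1, 7 without NPC replicate 3 or 5, and 8 without either neuron library.

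The machinery of transmitter release rose in 15 of 20 cases and fell in none (median log2 change 2.26). Syn2, a vesicle-tethering synapsin, read 0.80, 0.56 and 0.49 CPM in NPCs and 36.8 and 52.0 CPM in neurons (6.14, SE 0.51, edgeR adjusted p = 4.99e-07). Syt1, the calcium sensor of release, rose from 8.00, 3.42 and 3.20 CPM to 42.3 and 40.3 CPM (3.08, SE 0.61), and Syp, synaptophysin, from 30.2, 12.1 and 16.3 CPM to 211 and 160 CPM (3.25, SE 0.45). In these 3 genes the lowest neuron library exceeded the highest NPC library, which was replicate 1 in each. The other 5 release genes did not pass. Of 16 adhesion molecules of the synapse, 11 rose (median 3.21): the neurexins Nrxn2 and Nrxn3 by 3.40 and 3.42, and the neuroligins Nlgn1, Nlgn2 and Nlgn3 by 4.30, 1.18 and 2.44. Cntnap2, a neurexin relative of axons, read 81.9, 59.3 and 57.4 CPM against 41.2 and 29.5 CPM and did not pass (-0.90, SE 0.51). Without neuron replicate 1, 7 of the 16 adhesion genes rose.

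Of 22 voltage-gated channel genes 16 rose and none fell (median log2 change 2.61). The sodium channel Scn2a1 read 13.3, 6.47 and 4.21 CPM in NPCs and 141 and 110 CPM in neurons (3.97, SE 0.49, edgeR adjusted p = 1.36e-05); the auxiliary subunit Scn3b rose from 58.4, 27.5 and 19.3 CPM to 398 and 258 CPM (3.22, SE 0.51). Cacna1e, an R-type calcium channel, rose from 3.34, 4.44 and 3.28 CPM to 93.6 and 74.9 CPM (4.51, SE 0.41). The potassium channels Kcnd2 and Kcnq3 rose by 4.35 and 5.44. Scn8a, the sodium channel of mature axons, did not pass, at 16.9, 10.7 and 7.57 CPM against 14.1 and 12.3 CPM. Kcnj6, the G-protein-gated channel GIRK2 found in dopaminergic neurons, had no count in NPCs and 2.86 and 1.68 CPM in neurons, at least 91.6-fold higher.

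Receptors for glutamate and GABA rose in 17 of 26 cases and fell in none, with a median log2 change of 4.36. The AMPA receptor subunit Gria2, which makes the channel impermeable to calcium, read 25.7, 5.09 and 5.47 CPM in NPCs and 300 and 210 CPM in neurons (4.39, SE 0.86, edgeR adjusted p = 0.0011). The NMDA receptor subunits Grin1 and Grin2b rose from 1.42, 1.299 and 1.86 CPM to 41.1 and 34.0 CPM (4.63, SE 0.52) and from 0.47, 1.00 and 0.20 CPM to 67.6 and 29.6 CPM (6.40, SE 1.31). Grm5, a metabotropic receptor, rose from 1.04, 0.24 and 0.20 CPM to 72.4 and 46.0 CPM (6.83, SE 0.81). Among GABA receptor subunits, Gabra3 (4.89, SE 0.58) and the metabotropic Gabbr2 (5.10, SE 0.62) rose. The other 9 receptor genes did not pass.

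Axon guidance genes moved both ways: of 33, 7 rose and 5 fell, and the median log2 change was 0.20. That is 36.4% changed, beside 28.5% of all genes, of which 14.6% of those tested rose and 13.8% fell. Efnb3, a midline repellent ligand, rose from 44.5, 32.2 and 42.3 CPM to 358 and 587 CPM (3.57, SE 0.63, edgeR adjusted p = 0.00043), and the semaphorin receptor subunits Plxna4 and Nrp1 rose by 2.93 (SE 0.36) and 1.72 (SE 0.47). The Eph receptors Epha4, Epha7 and Ephb2 fell by 2.47, 1.98 and 2.10, with Ephb2 at 321, 259 and 189 CPM against 54.2 and 65.7 CPM, while Epha5 rose by 2.12. The other 21 genes of the list did not pass. The number that rose was 3 without NPC replicate 3 or 5 and 4 without either neuron library, and the number that fell was 3 without neuron replicate 1.

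Of 11 genes of neuronal splicing and of REST, 2 fell and 1 rose (27.3% changed, beside 28.5% of all genes). Ptbp1, which represses neuronal exons in dividing cells, fell from 180, 282 and 219 CPM to 57.0 and 63.2 CPM (log2 change -1.92, SE 0.31, edgeR adjusted p = 0.00017), and Rest, the repressor of neuronal genes, from 34.3, 63.2 and 53.5 CPM to 29.5 and 19.8 CPM (-1.03, SE 0.34), the latter lost without neuron replicate 3 (edgeR adjusted p = 0.25) or NPC replicate 3 or 5. Ptbp2, the neuronal relative of Ptbp1, read 1282, 881 and 378 CPM against 534 and 133 CPM and did not pass (-1.35, SE 0.79). Rbfox2 was the 1 that rose, a call lost without neuron replicate 3 (edgeR adjusted p = 0.052). The BAF complex trades subunits when neurons form. Of 12 genes of this exchange 3 rose, 2 fell and 7 did not pass (41.7% changed, beside 28.5% of all genes). The progenitor subunits Actl6a (73.8, 84.9 and 105.2 CPM against 3.76 and 11.9 CPM) and Ss18 (114, 142 and 158 CPM against 26.6 and 28.7 CPM) fell. Their neuronal counterparts Actl6b (7.68, 1.88 and 1.90 CPM against 22.7 and 22.4 CPM) and Ss18l1 (31.8, 17.03 and 17.9 CPM against 78.0 and 78.3 CPM) rose. The call of Actl6b was lost in 1 omission of libraries. The third exchange, of Phf10 for the Dpf genes, did not pass for any of its 4 genes.

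Of 15 genes of DNA methylation and Polycomb, 6 fell and 3 rose. Uhrf1, which guides maintenance methylation at replication forks, read 242, 446 and 222 CPM in NPCs and 7.93 and 6.72 CPM in neurons (log2 change -5.37, SE 0.54, edgeR adjusted p = 2.03e-06), and its partner Dnmt1 fell by 2.10. The Polycomb methyltransferase Ezh2 fell from 188, 190 and 98.8 CPM to 37.0 and 20.1 CPM (-2.48, SE 0.55) while its paralogue Ezh1 rose from 13.5, 17.3 and 12.3 CPM to 67.9 and 28.5 CPM (1.74, SE 0.39). Of the chromobox subunits of Polycomb, Cbx2 fell (-2.62, SE 0.40) and Cbx7 rose (2.09, SE 0.64). Dnmt3a, abundant in mature neurons, did not pass. The number that rose was 1 without neuron replicate 1 or without NPC replicate 1; the call of Ezh1 was lost without neuron replicate 1 (edgeR adjusted p = 0.12), and that of Cbx7 without neuron replicate 1 or NPC replicate 1 or 3 (0.067 to 0.081).

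Astrocyte genes rose beside the neuronal ones, whereas of 8 choroid plexus and ependyma genes 2 rose and 1 fell. Of 14 astrocyte genes 8 rose and none fell (median log2 change 2.27). Gfap, the astrocyte filament, stood at 0, 0 and 0.16 CPM in NPCs and 37.8 and 28.7 CPM in neurons (9.80, SE 1.04, edgeR adjusted p = 4.00e-06), and Sparcl1 rose from 9.84, 3.36 and 2.75 CPM to 1268 and 498 CPM (7.37, SE 0.67). Aqp4, the water channel of astrocyte endfeet, rose from 0.84, 1.00 and 0.97 CPM to 37.3 and 17.04 CPM (4.86, SE 0.72). The list's summed level was 800, 849 and 532 CPM in NPCs and 3031 and 1503 CPM in neurons, with neuron replicate 1 the higher. Of 10 oligodendrocyte lineage genes Pdgfra, Mbp and Cnp rose; Sox10, the defining factor of the lineage, stayed at 0.12 to 0.40 CPM in all 5 libraries.

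A list of motile cilia genes was added because Dnahc6, Wdr63 and Ccdc108 had stood among the 12 largest increases; it describes and is no independent support. Of its 30 tested genes 21 rose and none fell (median log2 change 3.89, or 3.81 with 3 genes that had no count in a stage set to their bound). Dnahc6, a dynein heavy chain, read 0, 0.043 and 0.040 CPM in NPCs and 41.7 and 29.5 CPM in neurons (10.36, SE 1.22). Hydin, of the central pair of the ciliary axoneme, rose from 0.34, 0.30 and 0.24 CPM to 15.6 and 12.8 CPM (5.56, SE 0.55), and Foxj1, the factor that switches on motile cilia, from 4.40, 2.16 and 4.94 CPM to 25.3 and 52.3 CPM (3.34, SE 0.87). Ccdc108 had no count in NPCs and was at least 878-fold higher in neurons, at 30.8 and 13.3 CPM. Without neuron replicate 1 the list held 14 genes that rose.

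Collagen and other mesenchymal genes rose in 7 of 11 cases (median log2 change 2.17), and Acta2, smooth muscle actin, fell from 198, 274 and 450 CPM to 32.7 and 9.84 CPM, a call lost without any 1 of the libraries except NPC replicate 1 (edgeR adjusted p from 0.059 to 0.22). Col1a1 read 4.85, 8.79 and 1.62 CPM in NPCs and 76.4 and 67.5 CPM in neurons (3.81, SE 0.97), and Dcn, the matrix proteoglycan decorin, 7.92, 14.4 and 5.87 CPM against 291 and 148 CPM (4.54, SE 0.64). The summed level of the list was 651, 746 and 685 CPM in NPCs and 2032 and 1410 CPM in neurons; the part of such cells in the other changes was not tested. Without neuron replicate 3, 4 of the 11 rose. Genes of other lineages stayed low: the summed level of 8 endothelial genes was 5.68 to 16.8 CPM, that of 7 genes of microglia and blood at most 0.75 CPM with Tyrobp at 0 in all 5 libraries, and that of 7 endoderm genes at most 1.62 CPM. Pluripotency genes summed to 3.44 to 5.81 CPM at both stages.

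Glycolysis and hypoxia genes rose in 16 of 23 cases and fell in none (median log2 change 1.37). Pfkp, a phosphofructokinase, read 6.77, 15.2 and 6.96 CPM in NPCs and 240 and 180 CPM in neurons (4.44, SE 0.35, edgeR adjusted p = 3.14e-07); Eno2, the neuronal enolase, rose from 3.21, 2.45 and 4.33 CPM to 53.4 and 71.9 CPM (4.24, SE 0.43). The hypoxia-responsive genes Bnip3 and Vegfa rose from 24.6, 39.4 and 44.0 CPM to 555 and 229 CPM and from 46.5, 71.8 and 67.3 CPM to 430 and 177 CPM, both highest in neuron replicate 1. Gapdh and Pkm2 overlapped between stages. Without neuron replicate 1, 9 of the 23 rose and 2 fell. Of 19 stress genes 6 rose, among them the heat shock gene Hspa1a (2.37, 1.39 and 2.15 CPM against 22.6 and 13.7 CPM) and Fos, and 2 fell. Without neuron replicate 1, 3 stress genes rose, and none fell without neuron replicate 3 or NPC replicate 3 or 5.

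Of 47 cytosolic ribosomal protein genes 8 fell and none rose (17.02% fell, beside 13.8% of all genes), with a median log2 change of -0.69. Their summed level was 12930, 15720 and 25420 CPM in NPCs and 9385 and 11370 CPM in neurons; NPC replicate 5 was again the highest. The number that fell was 12 without NPC replicate 1, 6 without NPC replicate 3, 2 without NPC replicate 5, 5 without neuron replicate 1 and 1 without neuron replicate 3. Among 21 genes of cholesterol synthesis 3 fell and none rose.

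Genes inside the deleted region changed with the stage in both directions. Of 30 tested, 7 rose and 6 fell (43.3% changed, beside 28.5% of all genes, 14.6% higher and 13.8% lower). The median log2 change was -0.08 in deletion cells and 0.15 in control cells. The interval genes lie on mm9 chromosome 7 between 133832441 and 134361959. Kif22, a mitotic kinesin, read 25.2, 27.1 and 44.7 CPM in NPCs and 0.73 and 1.91 CPM in neurons (-4.61, SE 0.43, edgeR adjusted p = 9.88e-07), beside a control change of -4.17. Hirip3, a histone chaperone partner, and Ppp4c, a phosphatase, fell by 2.04 and 1.89. Of the neuronal genes of the region, Sez6l2 rose from 3.99, 1.23 and 1.38 CPM to 23.0 and 37.9 CPM (3.78, SE 0.85) and Prrt2, a presynaptic protein, from 2.48, 2.84 and 3.68 CPM to 24.8 and 15.5 CPM (2.75, SE 0.67). Mapk3, the kinase ERK1, rose from 9.49, 6.86 and 18.5 CPM to 27.2 and 28.5 CPM (1.26, SE 0.34). Kctd13, a ubiquitin ligase adaptor, rose from 6.23, 8.92 and 3.28 CPM to 21.5 and 11.5 CPM (1.42, SE 0.51, edgeR adjusted p = 0.044). The calls of Kctd13, Ppp4c and Prrt2 were each lost in at least 1 omission of libraries. The other 17 genes of the region did not pass. The number that fell was 2 without neuron replicate 1 and 3 without NPC replicate 5.

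Aldoa, the glycolytic aldolase of the interval, read 63.5, 118 and 106 CPM in deletion NPCs and 498 and 297 CPM in deletion neurons (log2 change 2.06, SE 0.38, edgeR adjusted p = 0.00057). Control cells averaged 185 ± 38.3 CPM (SD, n = 5) in NPCs and 437 ± 157 CPM (SD, n = 4) in neurons. The fitted difference from control was -0.95 in NPCs and -0.14 in neurons, but the difference of the changes, 0.82 (SE 0.47), had an unadjusted edgeR p of 0.099 and did not pass. It lies in the interval and among the glycolysis genes above, and is counted in both.

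**Figure D3:**
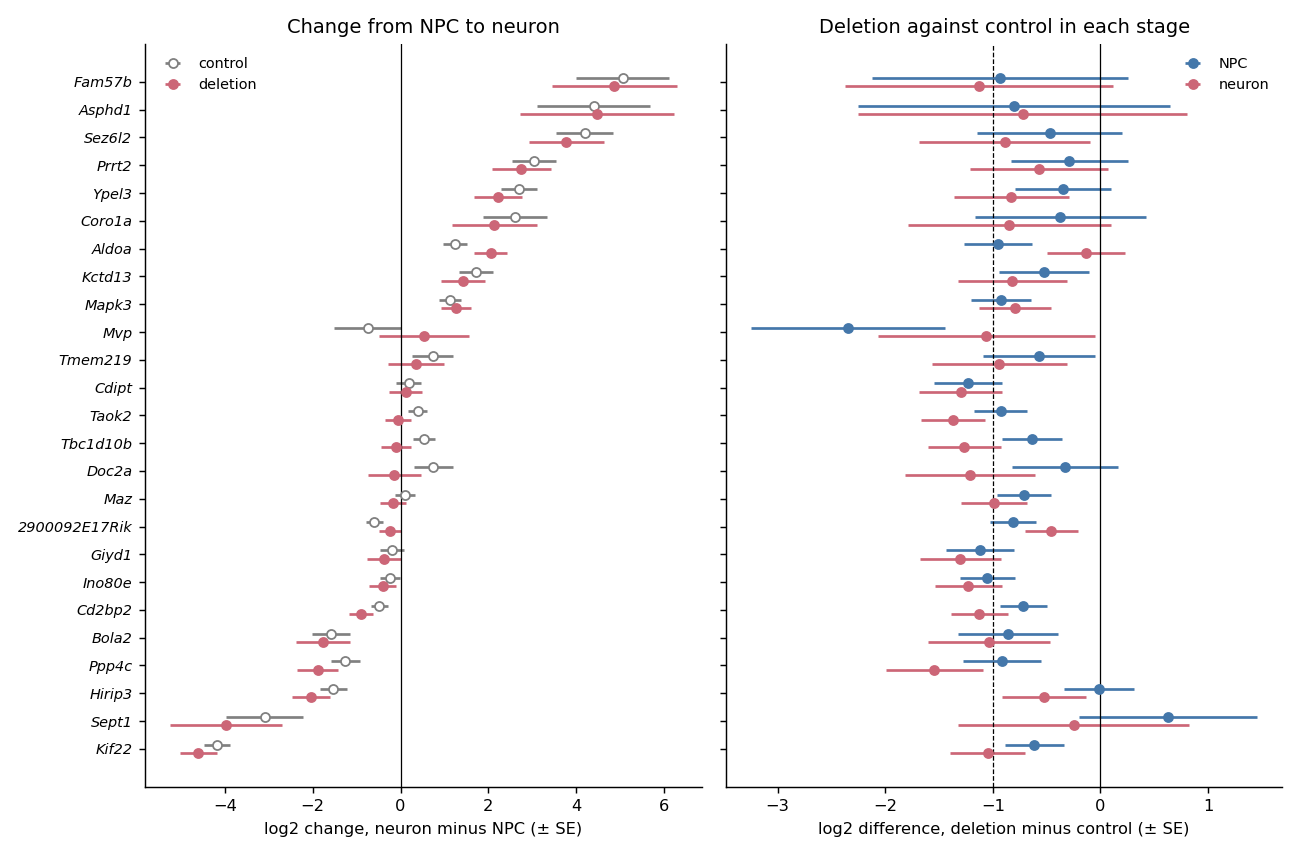
Interval genes with at least 1 CPM in 1 deletion stage. Left, log2 change from NPC to neuron with its SE in deletion (red) and control (grey) cells; right, log2 difference of deletion minus control with its SE in NPCs (blue) and neurons (red), where the dashed line marks -1, the loss of 1 of 2 copies. Kif22 fell and Sez6l2 rose in both genotypes, and nearly all differences from control lie to the left of 0.

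The clustered protocadherins are cell surface proteins of which single neurons express different sets; their alpha and gamma transcripts share constant exons, and how reads of those exons were divided among the isoforms is not given in the sources used here, so single isoforms are uncertain. Of 14 alpha genes 4 rose (28.6%), of 22 beta genes 4 (18.2%) and of 22 gamma genes 5 (22.7%), and none fell. Over all genes tested 14.6% rose. Among the beta genes, which have a single exon each, Pcdhb9 read 0.21, 0.30 and 0.32 CPM in NPCs and 5.86 and 8.46 CPM in neurons (log2 change 4.69, SE 0.83, edgeR adjusted p = 0.00044), and Pcdhb14 4.32, 5.87 and 2.47 CPM against 22.3 and 15.0 CPM (2.14, SE 0.44). Pcdhac2, an alpha isoform that neurons express constantly, rose from 6.54, 6.28 and 7.61 CPM to 36.0 and 27.4 CPM (2.22, SE 0.49), and Pcdhgc4 from 2.05, 2.58 and 2.47 CPM to 24.4 and 52.0 CPM (4.01, SE 0.48). In control cells 20 of the 22 beta genes rose, with a median change of 2.24 beside 1.28 in deletion cells (background 43.4% of genes changed in control and 28.5% in deletion cells). The deletion NPCs stood above control NPCs in the fitted values of all 22 beta genes, with a median of 1.58, and the deletion neurons in 21, with a median of 0.42. The medians over all genes tested were 0.02 and -0.06. Of all genes tested, edgeR called 2 higher in deletion than in control NPCs and 0 in neurons. Of the 14 alpha genes 1 was below control in NPCs and 5 in neurons (medians 1.36 and 0.43). Of the 22 gamma genes 15 were below control in each stage (medians -0.68 and -0.41). The summed beta level was 199, 259 and 91.9 CPM in deletion NPCs and 170, 342 and 193 CPM in duplication-deletion NPCs. Control NPCs read 30.2 to 93.3 CPM, so deletion NPC replicate 5 lay within their range. In neurons the sum was 415 and 362 CPM in deletion, 439 and 422 CPM in duplication-deletion and 170 to 336 CPM in control cells. For none of the 22 beta genes did the difference between the deletion and control changes pass, and 2 had an unadjusted edgeR p below 0.05. The number of beta genes that rose was 2 without neuron replicate 1, neuron replicate 3 or NPC replicate 5; that of alpha genes was 2 without neuron replicate 1 or NPC replicate 3, and that of gamma genes 2 without neuron replicate 1 and 3 without NPC replicate 5. Of 11 protocadherins outside the clusters, Pcdh1, Pcdh10, Pcdh11x and Pcdh20 rose.

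Set beside the other genotypes, the change of deletion cells had the same direction wherever both were called. Control cells changed 8157 genes (43.4%; 23.0% higher and 20.4% lower) with 9 libraries, and 4910 of them were also among the 5351 of deletion cells, all in the same direction; that is 91.8% of the deletion calls and 60.2% of the control calls. Cells with duplication and deletion changed 4435 genes (23.6%; 12.0% higher and 11.6% lower), and 3357 were shared, again with no opposite direction (62.7% of the deletion calls, 75.7% of the others). Across the 18797 genes the log2 changes of deletion and control cells had a Pearson correlation of 0.80 and a Spearman correlation of 0.82; genes are not independent, and both changes come from 1 fit but share no library. The medians of the lists were close in part: replication licensing -4.23 in deletion and -4.21 in control cells, mitosis -4.38 and -4.24, receptors 4.36 and 4.61. Lower medians in deletion cells were those of dopaminergic (3.82 and 5.32), serotonergic (2.73 and 5.46), GABAergic (1.63 and 3.00) and release genes (2.26 and 3.32). That of glutamatergic and cholinergic genes was higher (1.00 and 0.38). A test of the difference itself called no gene between deletion and control (0% of 18797); 543 had an unadjusted p below 0.05, limma-voom called 0 and DESeq2 called 8. Without deletion neuron replicate 3 edgeR called 31. Against the cells with duplication and deletion the same test called 1 gene (0.00532%), Gcfc1, and 27 without that library.

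**Figure D4:**
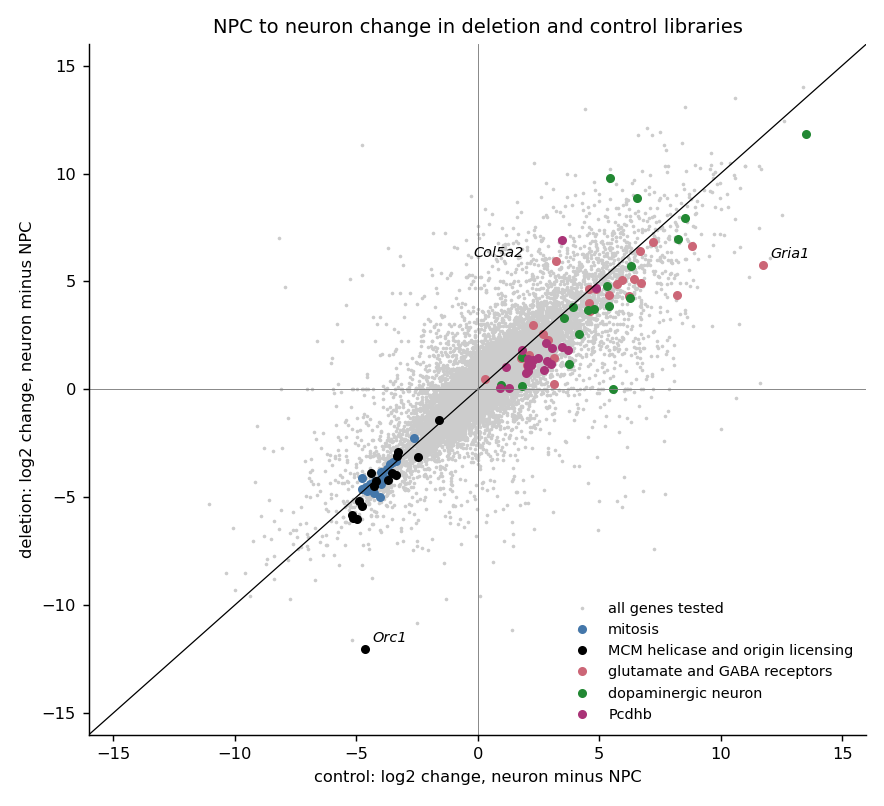
Log2 change from NPC to neuron in control (horizontal axis) and deletion cells (vertical axis) for each of the 18797 genes tested (grey), with 5 gene lists in colour and the line of equal change. Mitosis and licensing genes lie at the lower left and receptor genes at the upper right, near the line; Col5a2 lies above it with a change of 5.81 in deletion and -0.47 in control cells.

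The 5 genes with the smallest p for a difference from control, among those with a mean of at least 5 CPM in 1 group, are given with their values. Col5a2, a fibrillar collagen chain, read 4.66, 1.15 and 0.85 CPM in deletion NPCs and 157 and 97.7 CPM in deletion neurons (log2 change 5.81, SE 0.82, edgeR adjusted p = 5.53e-05). Control cells had 147 ± 61.0 CPM (SD, n = 5) in NPCs and 106 ± 51.4 CPM (SD, n = 4) in neurons. The duplication-deletion cells read 47.3, 16.8 and 7.59 CPM in NPCs. So the NPCs of both these genotypes were below every control NPC library, of which the lowest read 78.7 CPM, while deletion and control neurons overlapped. The NPC difference passed (-6.02, SE 0.79, edgeR adjusted p = 0.0050), and the difference of the changes, 6.28 (SE 0.96), did not (edgeR adjusted p = 0.072). It did pass in DESeq2 (adjusted p = 3.65e-08) and in edgeR without NPC deletion replicate 1 (0.016), neuron deletion replicate 3 (0.017), or NPC replicate 2 (0.022) or 5 (0.030) of the duplication-deletion cells; without neuron deletion replicate 1 the adjusted p was 0.60 and without NPC deletion replicate 3 it was 0.64. The other collagens Col1a1, Col1a2 and Col3a1 also rose more in deletion than in control cells in the fitted values (3.81 and 2.22, 3.21 and 1.81, 2.99 and 1.83), with none of these differences past the threshold.

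F5, coagulation factor V, rose from 0.45, 0.69 and 0.32 CPM to 17.9 and 15.2 CPM (log2 change 5.06, SE 0.51), against 2.32 in control cells, and was lower than control in NPCs (-2.52, edgeR adjusted p = 0.046). Serinc5, a membrane protein, rose from 46.4, 47.2 and 71.9 CPM to 162 and 128 CPM (1.39, SE 0.24), against 0.14 in control cells. Id4, an inhibitor of basic helix-loop-helix factors, read 53.7, 86.3 and 27.6 CPM in NPCs and 66.7 and 45.4 CPM in neurons, so its stages overlapped, whereas its control change was 2.43 (SE 0.32). The transcript AK032343 read 8.13, 6.73 and 2.19 CPM in NPCs and had no count in neurons, at least 218-fold lower, while control cells averaged 0.96 and 2.604 CPM. For none of these 4 genes did edgeR's test of the difference between the changes pass (unadjusted p from 0.00015 to 0.00055), whereas DESeq2 called all 4 (adjusted p = 3.96e-05 for AK032343, 0.028 for F5, 0.048 for Id4 and 0.049 for Serinc5) and limma-voom none.

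**Figure D5:**
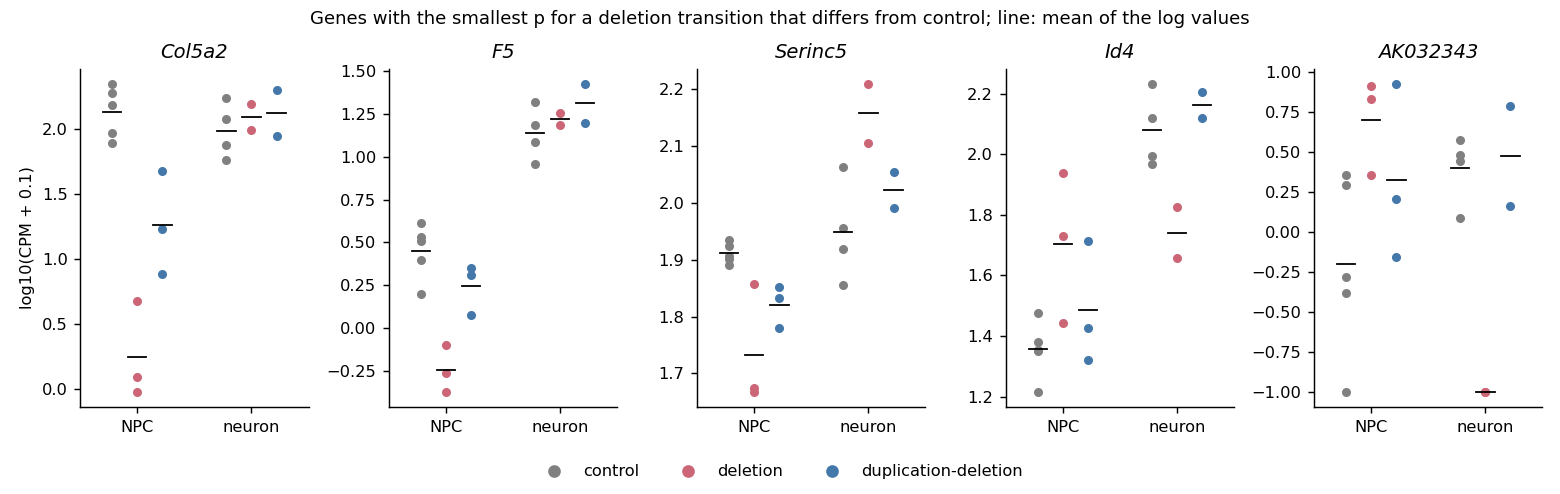
CPM on a log10 axis (0.1 added, each panel with its own range) of the 5 genes of at least 5 CPM with the smallest p for a difference between the deletion and the control change, in every NPC and neuron library of control (grey), deletion (red) and duplication-deletion (blue) cells; lines are means of the log values. Deletion NPCs lie lowest for Col5a2 and F5, and AK032343 is at 0 in both deletion neuron libraries.

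The largest changes by the naming rule that fell outside the lists were, among increases, AU021034 with no count in NPCs and 44.3 and 40.1 CPM in neurons (at least 1742-fold higher), the small GTPase gene Rit2 with at most 0.019 CPM in NPCs and 37.4 and 16.4 CPM in neurons, and Eef1a2, the elongation factor of mature neurons and muscle, with 30.9 and 13.0 CPM in neurons. The complement gene C4b (21.2 and 7.72 CPM), the exchange factor gene Rasgrf1 (17.2 and 4.30 CPM), the transcript AK045535 (24.3 and 3.71 CPM) and the myosin gene Myh8 (20.6 and 2.33 CPM) were also near 0 in NPCs, and each was higher in neuron replicate 1. Ahi-1, with no count in NPCs and 21.7 and 19.7 CPM in neurons, is a further entry of Ahi1, a ciliary gene, whose main entry rose from 106, 74.8 and 47.2 CPM to 689 and 338 CPM. Among decreases, the DNA repair nucleases Exo1 (43.1, 57.1 and 59.5 CPM against 0.29 and 0.98 CPM) and Eme1 (50.8, 71.1 and 66.9 CPM against 0.86 and 0.87 CPM), the chromatin remodeller Hells, the sister chromatid cohesion gene Dscc1 and Fndc3c1 (88.5, 130 and 155 CPM against 1.04 and 0.87 CPM) completed the 12.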

How the data were processed

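Stranded total RNA libraries, read as pairs of 75 bases, were aligned with STAR 2.6.0c and quantified with RSEM 1.3.0 on mm9, per the submitters' processing notes, which also name DESeq2 1.22.2. The authors deposited expected counts per gene symbol, of which 6392 of 29968 entries hold values that are not whole; they were rounded. The 92 spike-in entries were left out. Some genes have more than 1 entry, and whether counting used strand is not given in the sources used here.

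Genes were filtered with filterByExpr and scaled by TMM, and 1 robust quasi-likelihood model of edgeR 4.0.16 (R 4.3.3) was fitted to the 19 NPC and neuron libraries of 3 genotypes, with 13 residual degrees of freedom. Tests were two-sided, with Benjamini-Hochberg adjustment over 18797 genes and a threshold of 0.05. Levels are in CPM. A group without counts was given a floor of 3 counts, which covers counting error only. Of these steps, only the edgeR fit was run on simulated counts with known changes, and its outcome is not given here.

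Alternatives were DESeq2 1.42.0, limma-voom (limma 3.58.1), other scaling, no filter, fewer libraries, replicate blocks and leaving out each library. Leaving out NPC replicate 5 and neuron replicate 1 together was chosen after seeing the data. Named genes were the 12 largest changes in each direction (adjusted p below 0.05, at least 10 CPM in the higher stage, no overlap, no Gm or Rik symbol), members of 41 lists and of 2 lists added later, and, among genes with a mean of at least 5 CPM in 1 group, the 5 with the smallest p for a difference between genotypes, or those past the threshold. Members and lists were chosen with earlier results of these data known. Some genes are not reported here.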

Additional observations from a re-analysis of the deposited data

Results flagged for a closer look

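Gcfc1 was the 1 gene whose change differed between deletion cells and cells with duplication and deletion in edgeR's test of that difference (fitted log2 difference 12.52, adjusted p = 0.000286). It read 60.7, 25.8 and 31.6 CPM in deletion NPCs and 17.5 and 10.2 CPM in deletion neurons. In the other genotype it read 51.2, 39.9 and 36.3 CPM in NPCs and had no count in either neuron library, at least 1591-fold lower with 3 counts over the group as the floor; the fitted difference rests on that 0 and is not a measured size. A further entry of the same gene, C21orf66, read 73.0 and 77.7 CPM in those neuron libraries, so the 0 concerns 1 entry. limma-voom did not call the difference, and its cause was not tested.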

How the results depend on the processing

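The medians over the interval stayed below 0 in both stages with every setting that includes control libraries, and more than 1000 genes changed in each direction with every setting below. In the 5 deletion libraries alone 2006 genes rose and 1451 fell; with the 3 embryonic stem cell libraries added, 1708 fell. Leaving out 1 library at a time gave 1981 to 2887 genes that rose and 1839 to 2658 that fell, a median interval difference of -1.02 to -0.64 in NPCs and -1.50 to -0.66 in neurons, 0 to 31 genes that differed from control and 1 to 27 that differed from the cells with duplication and deletion. DESeq2 called 8 and 21 such genes, limma-voom 0 and 0, and the fit without the replicate 5 libraries 2 of the latter. Without NPC replicate 5 and neuron replicate 1 together, 1841 rose and 1832 fell, and 3044 of the 5351 calls (56.9%) were kept. DESeq2 kept 5312 (99.3%). Same-numbered NPC and neuron libraries deviated from their group means with correlations of 0.24 and -0.41. With 2 neuron libraries the deviations from their mean are mirror images, so these values cannot decide whether equal numbers are pairs. The main fit did not take the numbers as pairs. A replicate block gave 2855 genes that rose and 2944 that fell in the 19 libraries, and 1342 and 1072 in the 5 deletion libraries alone. With 3 and 2 libraries, small changes and low genes could not be resolved. The causes of these shifts were not tested. Of the genes named without passing the test, the following changed sign in some fits. A replicate block gave log2 changes of -0.30 for Fabp7, -0.11 for Id4, -0.047 for Nr4a2, -0.001838 for Scn8a and -1.82 for Slc18a2 in the 19 libraries, and of -0.28 for Id4 and -0.33 for Nr4a2 in the 5 deletion libraries. Without the replicate 5 libraries Fabp7 changed by -0.078, Id4 by -0.29, Nr4a2 by -0.32 and Scn8a by -0.037. Leaving out libraries gave ranges of -0.35 to 0.92 for Fabp7, -0.62 to 0.46 for Id4, -0.50 to 0.052 for Lmx1a, -0.73 to 0.75 for Nr4a2, -0.16 to 0.53 for Scn8a, -1.79 to 2.15 for Slc18a2 and -0.10 to 0.88 for Tubb3. The 48 named genes whose call was lost in at least 1 of these omissions were Acta2, Actl6b, Cbx7, Clic6, Col1a1, Corin, Dll1, Epha5, Ephb2, Ezh1, Fos, Foxj1, Gad2, Gcfc1, Gli1, Gli2, Heyl, Jag2, Kctd13, Lef1, Mitf, Nefm, Neurog2, Nkd1, Nlgn1, Nlgn2, Nlgn3, Nrp1, Pax3, Pcdh11x, Pcdhb14, Pdgfra, Pitx3, Ppp4c, Prom1, Prrt2, Rbfox2, Rbl2, Rest, Slc17a8, Slc32a1, Sox1, Sox3, Sp5, Tal2, Tcfap2a, Th and Wnt1.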

Other observations

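Of 8 choroid plexus and ependyma genes Foxj1 and Aqp1 rose and Clic6 fell, and of 8 neural crest genes Mitf rose and Tcfap2a and Pax3 fell. The call of Clic6 was lost without either neuron library or NPC replicate 3; without neuron replicate 1 no neural crest gene passed, and without neuron replicate 3 none fell. Of 9 tested interferon genes Ifit3 rose. None of 5 tested muscle genes changed.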
